A study of Mus musculus with 5 samples.

Results

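Calcineurin is the calcium-activated phosphatase of T cell receptor signalling, and 9 genes of its pathway were examined in CD4SP thymocytes, which carry CD4 but not CD8. They were Ppp3ca, Ppp3cb and Ppp3cc for the catalytic subunit, Ppp3r1 for the regulatory subunit, Nfatc1 and Nfatc2 for its substrates, and Rcan1, Rcan2 and Cabin1 for its inhibitors. A gene was taken from array rows that carry its symbol alone, and of several such rows the one with the highest mean was used. By that rule 8 of the 9 genes were measured, among 12267 genes in all. The row for Ppp3r1 also carries the symbol Wdr92, so Ppp3r1 has no value here. The genes were chosen by pathway, with the log2 changes between PLZF transgenic and wild type arrays already in view, so these changes are printed as a description and support no further statement.

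The study compared CD4SP cells sorted from thymi of PLZF transgenic mice (3 arrays) with cells sorted from wild type mice (2 arrays), all on the C57BL/6J background and aged 4 to 6 weeks. PLZF is a zinc finger transcription factor best known from NKT cells, a T cell type with innate features. Each array held RNA from pooled mice, and the samples are called biological replicates. The labels do not name the promoter that drives the transgene. Each sample was read on an Affymetrix mouse exon array, and the 2 to 3 arrays per group limit the precision of every value.

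When a T cell receptor is engaged, calcium enters the cell, binds calmodulin and the regulatory subunit, and switches calcineurin on. Calcineurin then removes phosphates from NFAT transcription factors, which move into the nucleus and bind the DNA core GGAAA, often beside AP-1. In T cells this drives cytokine and activation genes, and cyclosporin and tacrolimus suppress immunity by blocking it. The catalytic subunit exists as 3 isoforms, alpha (Ppp3ca), beta (Ppp3cb) and gamma (Ppp3cc). Beta is known from mouse knockouts as the isoform that T cell development most needs, and gamma is known for its abundance in testis.

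Arrays had median intensities of 59.0 to 60.3 and maxima of 13300 to 14527. A gene was called when its adjusted p was under 0.05 (limma across all 12267 genes, Benjamini-Hochberg), and 370 genes were called lower and 211 higher in transgenic cells (607 and 525 after quantile normalization between arrays). The arrays share many exact values: 67.2% of the genes, and 5 of the 8 pathway genes described, had the same value in several arrays, so for these an SD of 0 is not a measure of the spread between mice. Of 10 listed T cell markers 5 were measured, all above the median gene. Of these 5, 3 were called lower, beside 3.02% of all genes tested: Cd2 (log2 change -1.11), Cd5 (-0.36) and Cd28 (-0.21). Cd247 (-0.22) and Zap70 (0.01) were not called. The summed intensity of the 5 was 10229 to 10443 in transgenic arrays, against 12781 to 13348 in wild type arrays. Of 6 CD4SP markers 3 were measured, also above the median gene. Zbtb7b was called lower (-0.13), while Ccr7 (-0.38) and Gata3 (0.05) were not called. Cd4 and Zbtb16, the gene of PLZF, were not analysed here, so neither the sort nor the genotype can be checked by its own gene.

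The catalytic subunits moved in opposite directions in transgenic cells. Ppp3cc fell 4.86-fold and Ppp3ca rose 1.95-fold, while Ppp3cb did not pass the test. Nfatc1, Nfatc2 and the 3 inhibitor genes did not pass either. In all, 1 of the 8 genes was called lower and 1 higher, beside 3.02% and 1.72% of all genes tested, shares from which nothing is read because the genes were chosen with this comparison known. The median absolute log2 change was 0.06 over the 8 genes and 0.05 over all genes tested.

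**Figure D1:**
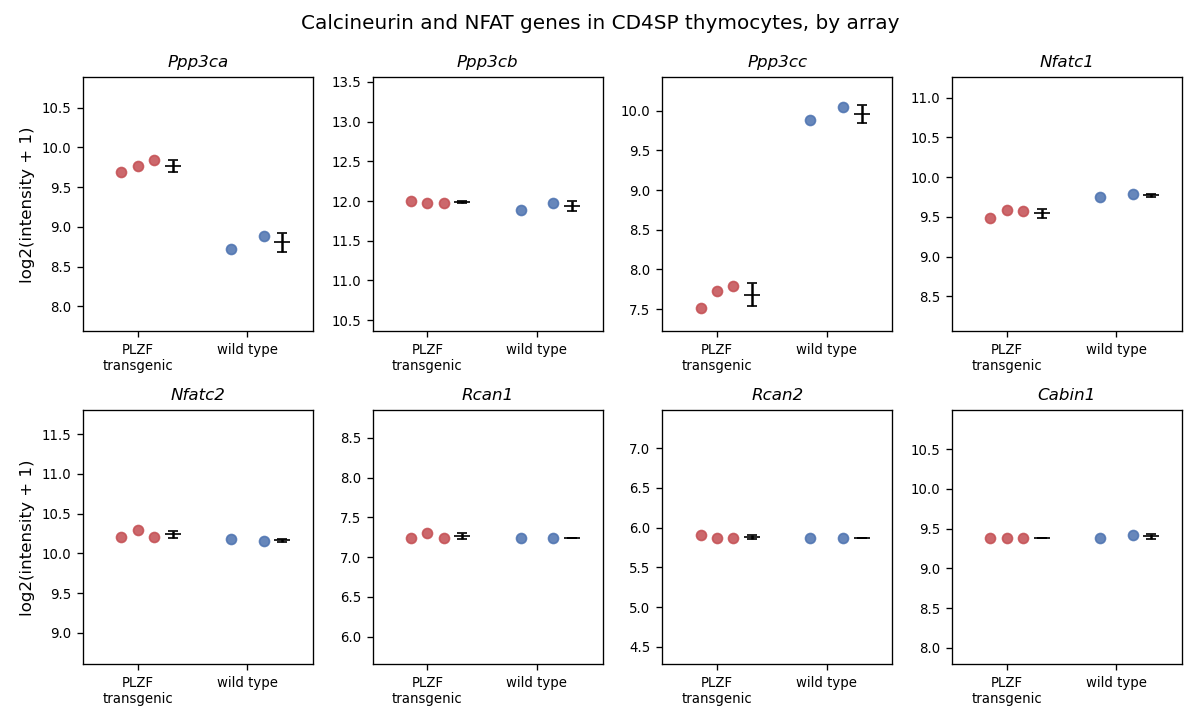
Log2(intensity + 1) of the 8 measured genes (vertical axes, each spanning the same number of log2 units) in PLZF transgenic and wild type CD4SP cells. Points are arrays, and the horizontal marks with bars are group means ± SD (3 transgenic, 2 wild type arrays). Ppp3cc lies between 7.51 and 7.79 in transgenic arrays and between 9.88 and 10.04 in wild type arrays, and Ppp3ca shows the opposite order.

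The gamma catalytic subunit gene had the largest change of the group. The intensity of Ppp3cc was 182, 212 and 221 in the 3 transgenic arrays, against 942 and 1051 in the 2 wild type arrays. Every transgenic array was far below both wild type arrays, and the gap between the groups was larger than the spread within either. On the log2(intensity + 1) scale, Ppp3cc averaged 7.68 ± 0.15 in transgenic cells (SD, n = 3) and 9.96 ± 0.11 in wild type cells (SD, n = 2), a change of -2.28 ± 0.11 (SE of the fit). Its mean over all arrays lay at the 73.8th percentile of gene means. Ppp3cc ranked 7 by size among the 370 genes called lower, and 13 genes, itself included, changed at least as much in either direction.

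The alpha subunit gene was higher in transgenic cells. Ppp3ca read 827, 866 and 913 in the transgenic arrays, against 419 and 473 in the wild type arrays. All transgenic values exceeded both wild type values, without overlap. Its log2 mean was 9.76 ± 0.07 in transgenic cells (SD, n = 3) and 8.80 ± 0.12 in wild type cells (SD, n = 2), a change of 0.96 ± 0.08 (SE). It ranked 46 by size among the 211 genes called higher. The log2 change of Ppp3cc minus that of Ppp3ca was -3.24, which measures how far the 2 isoform genes moved apart and not their relative amounts, because levels of different probes are not comparable.

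Neither call held without 1 of the transgenic arrays. Without transgenic replicate 1, 2 or 3 the fit called 4, 45 and 10 genes in all, and neither Ppp3cc nor Ppp3ca was among them, although the log2 change of Ppp3cc stayed between -2.34 and -2.20 and that of Ppp3ca between 0.92 and 1.00 in these 3 fits. With array weights, and with the replicate number as a block, neither passed, and Ppp3ca did not pass when all 65529 rows of the table were tested. Among the 4027 genes with 5 different values, a subset of the table to which both belong, both passed with all arrays and with any 1 transgenic array left out. Calls were far more common in that subset, with 625 genes lower and 418 higher, against 370 and 211 among all 12267 genes. A gene with the same value in a transgenic and a wild type array is left out of it. The choice of genes thus depends on the comparison, and passing there does not restore the calls. The fits of the subset without an array were added after the data were seen.

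The beta subunit gene Ppp3cb differed little between the groups. It read 4100, 4031 and 4031 in the transgenic arrays, against 3789 and 4031 in the wild type arrays. Wild type replicate 2 and 2 of the transgenic arrays held the same value, so the groups touched. The log2 change was 0.05 ± 0.03 (SE) and did not pass the test. After quantile normalization of the arrays it was 0.14 and passed.

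**Figure D2:**
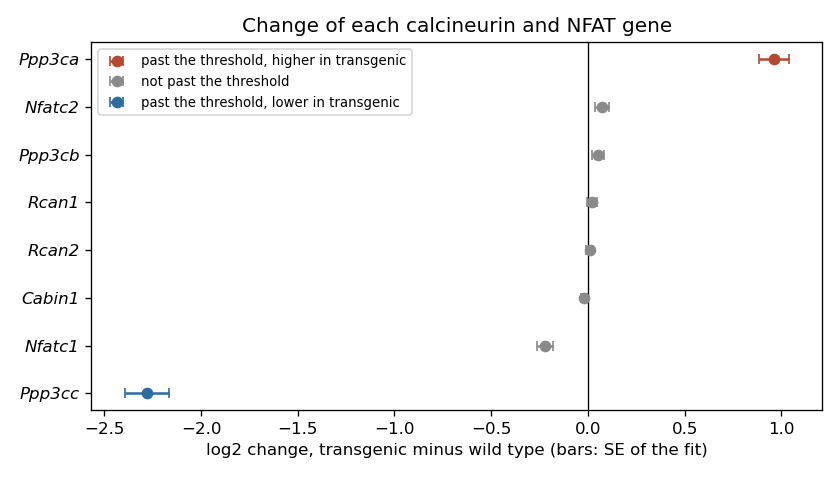
Log2 change of each gene, transgenic minus wild type, with bars for the SE of the fit and colours for the call at an adjusted p under 0.05. Ppp3ca lies at 0.96 and Ppp3cc at -2.28, and the other 6 genes lie between -0.22 and 0.07.

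Both NFAT genes gave bright signals, at the 88.7th (Nfatc1) and 94.4th (Nfatc2) percentile of gene means. Nfatc1, whose product is the NFAT protein that activated T cells induce through NFAT itself, read 713, 769 and 758 in the transgenic arrays, against 863 and 881 in the wild type arrays. The groups did not overlap, with all transgenic values below both wild type values. Its log2 mean was 9.55 ± 0.06 in transgenic cells (SD, n = 3) and 9.77 ± 0.02 in wild type cells (SD, n = 2), a change of -0.22 ± 0.04 (SE) that did not pass the test. It passed after cyclic loess (-0.21) or quantile normalization (-0.20) and when only genes with 5 different values were tested, but in none of the 5 fits of all genes with 1 array left out, where it ran from -0.24 to -0.19.

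Nfatc2, the NFAT protein already present in resting T cells, read 1184, 1255 and 1184 in the transgenic arrays, against 1159 and 1139 in the wild type arrays. All transgenic values were slightly above both wild type values, and 2 of them were identical. The log2 change was 0.07 ± 0.03 (SE) and did not pass. Groups without overlap were thus found for 4 of the 8 genes, 2 lower (Ppp3cc and Nfatc1) and 2 higher (Ppp3ca and Nfatc2), beside 27.7% of all genes tested (15.1% lower and 12.6% higher).

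The inhibitor genes were nearly level across the arrays. Rcan1, which encodes a calcineurin-binding inhibitor, read 150.0, 157 and 150.0 in the transgenic arrays, against 150.0 in both wild type arrays. Only transgenic replicate 2 departed from the value shared by the other 4 arrays, and the log2 change was 0.02 ± 0.03 (SE). Rcan2, a second member of the same inhibitor family, read 59.2, 57.6 and 57.2 in the transgenic arrays, against 57.6 in both wild type arrays. Its log2 change was 0.01 ± 0.02 (SE), and it was the dimmest of the 8, at the 29.5th percentile of gene means, so a small change could be missed. Cabin1, which binds calcineurin and the transcription factor MEF2, read 665 in all 3 transgenic arrays, against 665 and 685 in the wild type arrays. Its log2 change was -0.02 ± 0.01 (SE), and the single departing array was wild type replicate 2. None of the 3 inhibitor genes passed the test, and their groups overlapped.

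Rcan1 is transcribed from more than one start, and one of them is known to be driven by NFAT, so both start windows held by RefSeq (GRCm38.p6) are shown, each from 250 bases before to 50 bases after the start. Capitals mark GGAAA, the NFAT core, and TTTCC, the same core on the other strand. Matches to one string cannot overlap matches to the other.
Rcan1, chr16:92466120-92466419, minus strand: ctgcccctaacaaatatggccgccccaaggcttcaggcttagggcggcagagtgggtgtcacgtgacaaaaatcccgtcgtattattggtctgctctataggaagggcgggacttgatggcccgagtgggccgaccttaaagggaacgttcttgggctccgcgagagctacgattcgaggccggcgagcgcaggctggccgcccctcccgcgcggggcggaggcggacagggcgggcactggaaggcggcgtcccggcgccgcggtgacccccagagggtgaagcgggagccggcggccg
Rcan1, chr16:92400029-92400328, minus strand: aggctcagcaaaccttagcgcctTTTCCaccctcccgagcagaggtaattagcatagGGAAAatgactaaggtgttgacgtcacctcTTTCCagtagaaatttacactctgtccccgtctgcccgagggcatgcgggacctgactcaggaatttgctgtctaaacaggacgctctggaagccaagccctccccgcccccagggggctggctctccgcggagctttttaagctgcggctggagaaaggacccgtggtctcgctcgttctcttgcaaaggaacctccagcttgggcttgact
The first window held 0 matches and the second held 3. Of 32851 promoter windows of 300 bases, 61.3% held at least 1 match and 9.42% at least 3, so a match is common and describes the letters only. Rcan1 had 1 array row, whose single value per array does not separate the starts. Windows on 1 chromosome were left out before the windows of these genes were counted. Among the windows kept, 6 of the 9 genes had an entry, 10 windows in all, and 5 of these held a match. Ppp3ca, Ppp3cc and Nfatc1 had none among the windows kept, which does not show that RefSeq lacks them.

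Other genes of the pathway were followed in 5 lists ordered by role, from calcium entry to NFAT targets. Of 83 genes listed 49 were measured, and 6 of these were called lower and 3 higher in transgenic cells, 18.4% of the measured genes beside 4.74% of all genes tested. Groups did not overlap in 31 of the 49, against 27.7% of all genes. Nothing is read from these shares, because the lists were chosen with earlier results of these data known. All 9 called genes stood in the lists of NFAT kinases and NFAT targets, and with any 1 transgenic array left out none of the 49 passed.

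None of the 5 measured genes of calcium entry and calmodulin passed. Atp2b4, a calcium pump of the plasma membrane, had a change of -0.57 ± 0.28 (SE, limma adjusted p = 0.458). That was the largest change of this list, but it was -0.90 without wild type replicate 1, -0.23 without wild type replicate 2, and -0.26 with the mean of its rows. In the last setting Plcg1, the phospholipase that starts the calcium signal, had a larger change (-0.35). All 5 had groups without overlap, 4 with transgenic values below and 1 above, beside 27.7% of all genes tested (15.1% lower and 12.6% higher). The list was chosen with earlier results of these data known, so nothing is read from this count. Its median log2 change was -0.23. None of the 8 measured partners and regulators of calcineurin passed either, and the largest change among them was that of Mef2d, a transcription factor held in check by Cabin1 (-0.46 ± 0.16, SE, limma adjusted p = 0.295). Without wild type replicate 1 it was -0.66, and without wild type replicate 2 it was -0.26. The median of that list was -0.03.

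Among 11 measured genes for other NFAT proteins, NFAT kinases and nuclear transport, 2 were called lower and none higher. Over all genes tested these shares were 3.02% and 1.72%, and nothing is read from the counts. Csnk1e, which encodes casein kinase 1 epsilon, of the kinase family that returns NFAT to its phosphorylated form, read 1508, 1519 and 1525 in the transgenic arrays, against 1996 and 2072 in the wild type arrays. The groups were clearly apart, with a log2 change of -0.42 ± 0.02 (SE, limma adjusted p = 0.0109). Csnk1a1, for casein kinase 1 alpha, read 1354 in all 3 transgenic arrays, against 1446 and 1429 in the wild type arrays, a log2 change of -0.09 ± 0.01 (SE, limma adjusted p = 0.0203). Csnk1a1 did not pass after cyclic loess (-0.08), after quantile normalization (-0.04), with every row tested or with the mean of its rows (0.04), and its transgenic SD of 0 comes from 3 identical values. Csnk1e did not pass with every row tested either, and neither gene passed with array weights or with the replicate number as a block. Nfatc4, the other NFAT gene measured, had the same value, 64.5, in all 5 arrays.

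None of 5 measured DNA-binding partners of NFAT passed. Batf, an AP-1 family factor, had a log2 change of 0.47 ± 0.09 (SE, limma adjusted p = 0.115), the largest there. Fos, an AP-1 subunit, had a change of -0.44 ± 0.08 (SE, limma adjusted p = 0.0945), and the list's median was 0.05. Fos is named after its value was seen.

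**Figure D3:**
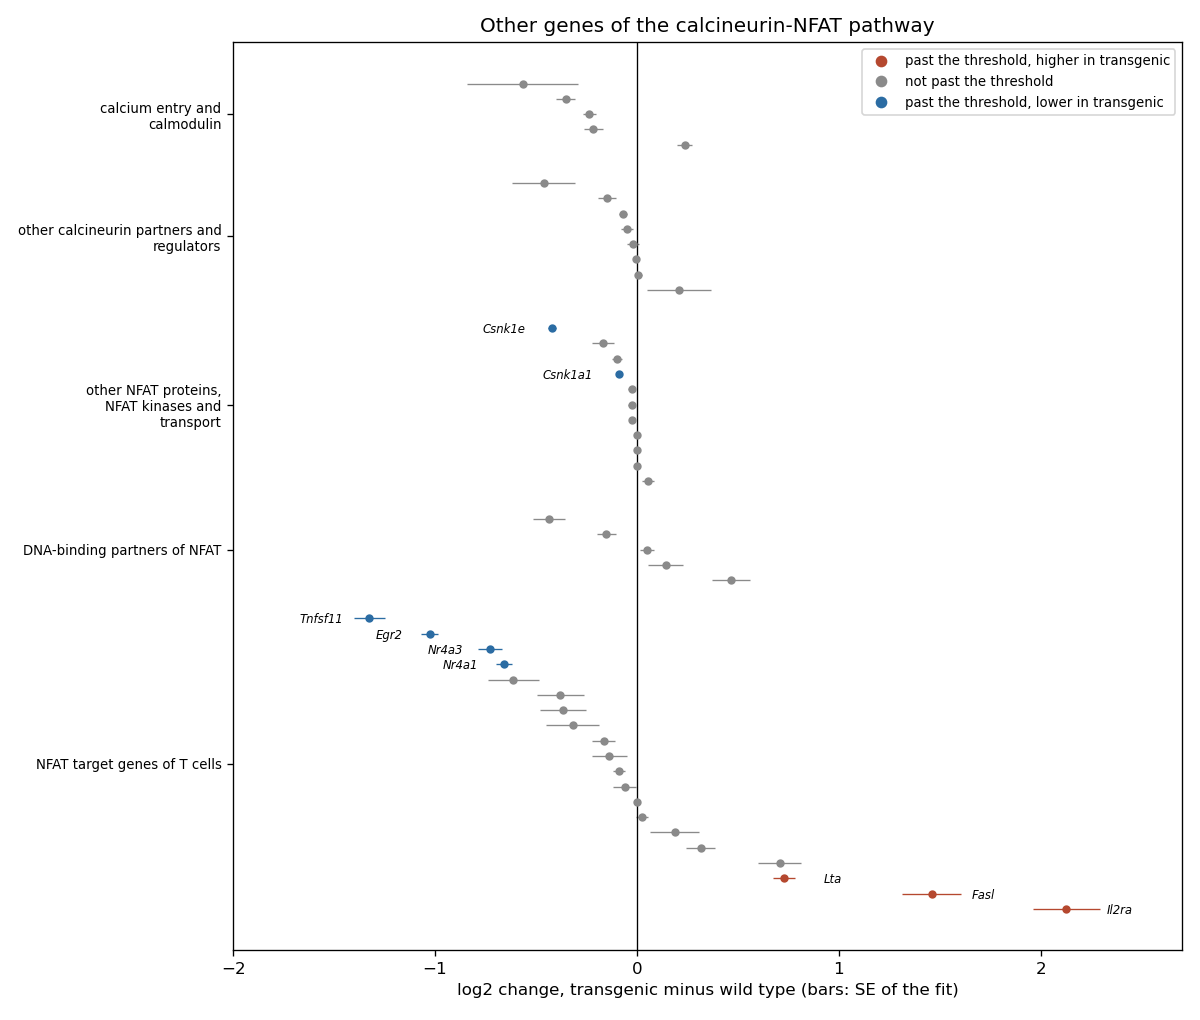
Log2 change, transgenic minus wild type, of 49 further pathway genes in 5 lists (vertical axis, 1 point per gene with the SE of the fit). Colours give the call at an adjusted p under 0.05, and the 9 genes past it are named. The called genes lie in the lists of NFAT kinases and of NFAT targets, and the targets spread from -1.33 to 2.13.

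Of 20 measured NFAT target genes of T cells, 4 were called lower and 3 higher, beside 3.02% and 1.72% of all genes tested. As this list was chosen with earlier results of these data known, nothing is read from these counts. Il2ra, which encodes the alpha chain of the interleukin-2 receptor, read 684, 887 and 926 in the transgenic arrays, against 194 and 182 in the wild type arrays. It rose by 2.13 ± 0.17 on the log2 scale (SE, limma adjusted p = 0.0224). Fasl, a death receptor ligand, read 244, 297 and 322 in the transgenic arrays, against 99.6 and 107 in the wild type arrays, and rose by 1.46 ± 0.15 (SE, limma adjusted p = 0.0347). Fasl did not pass without either wild type array (1.41 and 1.51), and Il2ra did not pass without wild type replicate 2 (2.08). In both genes every transgenic array was above every wild type array.

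Tnfsf11, which encodes the cytokine RANKL, read 298, 267 and 272 in the transgenic arrays, against 735 and 665 in the wild type arrays. Its log2 change was -1.33 ± 0.08 (SE, limma adjusted p = 0.0157). Egr2, a zinc finger factor induced by receptor signals, read 919, 955 and 894 in the transgenic arrays, against 1926 and 1834 in the wild type arrays, a log2 change of -1.03 ± 0.04 (SE, limma adjusted p = 0.00957). Both fell with no overlap between the groups. The other 3 targets past the threshold, named after their values were seen, were Lta (log2 change 0.73), a cytokine of the TNF family, and the nuclear receptors Nr4a3 (-0.73) and Nr4a1 (-0.66). Their limma adjusted p values were 0.0210, 0.0233 and 0.0170. Il2, the classical NFAT target, had a log2 change of -0.37 ± 0.11 (SE, limma adjusted p = 0.253). It was -0.51 without wild type replicate 1 and -0.23 without wild type replicate 2. The Il2 signal was dim, at the 20.9th percentile of gene means. The list's median log2 change was -0.11.

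The start windows of 3 of these targets are shown because the genes moved most and in opposite directions. The same capitals mark the NFAT core, and the windows come from RefSeq (GRCm38.p6).
Il2ra, chr2:11642542-11642841, plus strand: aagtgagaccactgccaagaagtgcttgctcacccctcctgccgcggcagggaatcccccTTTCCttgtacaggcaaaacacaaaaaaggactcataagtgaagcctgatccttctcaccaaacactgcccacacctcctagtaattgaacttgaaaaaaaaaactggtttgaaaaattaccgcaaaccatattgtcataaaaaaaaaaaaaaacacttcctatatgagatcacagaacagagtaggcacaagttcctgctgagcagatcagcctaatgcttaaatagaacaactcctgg
Fasl, chr1:161788446-161788745, minus strand: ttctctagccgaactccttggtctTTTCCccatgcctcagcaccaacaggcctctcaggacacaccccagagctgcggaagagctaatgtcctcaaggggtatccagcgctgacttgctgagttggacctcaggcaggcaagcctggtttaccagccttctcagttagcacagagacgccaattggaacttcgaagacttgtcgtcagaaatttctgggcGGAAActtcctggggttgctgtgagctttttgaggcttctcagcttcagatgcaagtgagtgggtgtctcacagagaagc
Tnfsf11, chr14:78307994-78308293, minus strand: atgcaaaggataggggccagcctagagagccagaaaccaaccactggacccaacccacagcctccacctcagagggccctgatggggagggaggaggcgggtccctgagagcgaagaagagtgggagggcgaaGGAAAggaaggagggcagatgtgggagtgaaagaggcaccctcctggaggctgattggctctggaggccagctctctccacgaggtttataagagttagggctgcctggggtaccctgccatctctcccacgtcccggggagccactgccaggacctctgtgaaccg
Il2ra held 1 match, Fasl 2 and Tnfsf11 1, so all 3 genes shown hold the core in this window, whichever way they moved. The windows of Egr2, which also fell, are not shown and held from 0 to 3 matches. Of all windows of this length, 61.3% held at least 1 match and 26.7% held 2 or more.

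The genes whose pattern over the 5 arrays was closest to that of Ppp3cc were sought among 4026 others with 5 different values. Likeness was the root mean square difference between log2 values, each gene centred on its own mean. The closest were AI504432 (0.09), Ptgfrn (0.11), a membrane protein of the immunoglobulin superfamily, Bach2 (0.13), a transcriptional repressor of naive T cells, Neurl3 (0.14), a ubiquitin ligase, and Igfbp4 (0.15), which binds insulin-like growth factors. All 5 were called lower, with log2 changes between -2.35 and -2.10. For Ppp3ca the closest were Rcbtb2 (0.02), Dpp4 (0.03), the surface peptidase CD26, Smpdl3a (0.05), a phosphodiesterase, Wls (0.05), which carries Wnt proteins to the surface, and St6galnac3 (0.05), a sialyltransferase. All 5 were called higher, with log2 changes between 0.92 and 1.01. With 5 arrays in 2 groups, this likeness mostly ranks genes by the size of their change.

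**Figure D4:**
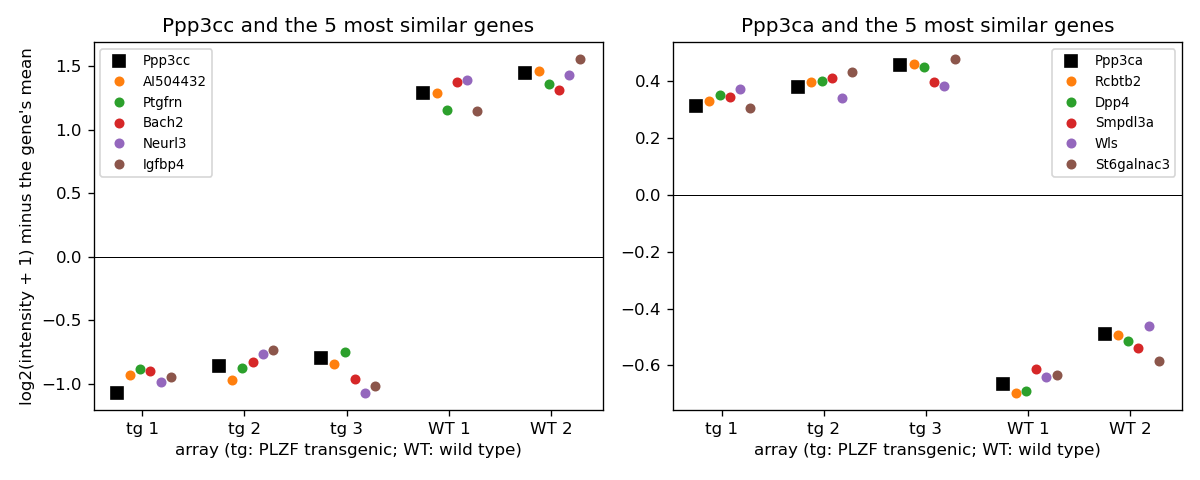
Log2(intensity + 1) minus the gene's mean over the 5 arrays, for Ppp3cc (left) and Ppp3ca (right), each as squares, with the 5 genes of smallest root mean square difference as circles. Each array is a position on the horizontal axis. The genes near Ppp3cc are low in the 3 transgenic arrays and those near Ppp3ca are high in them.

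Markers of other cells that a CD4SP sort could hold were set beside these values, since in sorted bulk RNA fewer cells of a type and less RNA per cell cannot be told apart. Summed intensities over the measured B cell markers (3 of 6) were 245 to 269 in transgenic arrays, against 227 to 234 in wild type arrays. Those of immature thymocytes (3 of 6) were 293 to 322 in transgenic arrays, against 339 to 355 in wild type arrays, and those of myeloid and dendritic cells (5 of 10) were 349 to 354, against 368 to 387. No gene of these 3 lists passed the test. These sums did not overlap between the groups, and neither did the values of 27.7% of all single genes tested. No measured myeloid gene lay above the median gene, and in each of the other lists 1 of 3 did. Ms4a1, Rag2 and Adgre1 lay at percentiles 9.22, 10.2 and 11.1 of gene means, so nothing is read from these sums. All 3 measured B cell genes had a positive log2 change: Ebf1 0.19, Cd79b 0.18 and Ms4a1 0.02. In the immature thymocyte and myeloid lists single markers went both ways. Among the immature thymocyte genes the log2 change was -0.54 for Dntt, 0.12 for Rag2 and 0.02 for Ptcra, with a list median of 0.02. Among the myeloid genes it was -0.32 for Cd14 and 0.07 for Zbtb46. Runx3, the only CD8 T cell marker measured of 4, had an intensity of 347 to 385 in transgenic arrays, against 420 to 439 in wild type arrays. For gamma delta T, NK and NKT cells (2 of 7 measured) the sums were 454 to 474, against 420 to 436, and for epithelial and stromal cells (6 of 8 measured) 1614 to 1646, against 1857 to 1937. Among the epithelial and stromal genes, Pecam1, which leukocytes also carry, was called lower, with a log2 change of -0.30. The others measured in that list had log2 changes from -0.05 (Epcam) to 0.03 (Foxn1). None of the 5 erythroid markers had a row used here. Their part in the changes of Ppp3cc and Ppp3ca was not tested.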

How the data were processed

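RNA of sorted CD4SP thymocytes from 5 samples was amplified, labelled with biotin and hybridised to mouse exon arrays, per the labels' protocols. RMA and Affymetrix Expression Console, without versions, and the build mm9 are named in the submitters' processing notes. The deposited values are intensities on a linear scale, and log2(intensity + 1) was computed from them. Of 65529 rows, 14011 carry 1 symbol, 864 several and 50654 none in the platform annotation, which gave 12267 genes.

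Transgenic minus wild type was fitted across all genes with limma 3.58.1 (lmFit, eBayes, R 4.3.3; 3 residual degrees of freedom), with Benjamini-Hochberg adjustment, called at an adjusted p under 0.05, and no filter on level. The procedure was tested on simulated data. The members and gene lists were chosen with earlier results of these data known. All members were named, with up to 4 called genes per further list or, with none called, the gene of largest change, and the 5 genes closest to the members of largest fall and rise. Identical values differ by at most 0.000005 on the log2 scale. Replicate numbers were checked for pairing: same-numbered samples' deviations correlated at 0.123 and 0.0325 over genes with 5 different values. Transgenic replicate 3 and wild type replicate 2 gave 0.0884. With 2 wild type arrays their deviations mirror each other, so this check cannot decide pairing. The same-numbered samples share only a number and were not treated as pairs. Alternatives covered the replicate block, pseudocount, variance trend, array weights, scaling, rows, dim genes (under the 25th percentile) and each array left out.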

Additional observations from a re-analysis of the deposited data

How the results depend on the processing

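The log2 change of Ppp3cc kept its sign under every alternative run, from -2.36 to -2.20, but it was no longer past the threshold with the replicate block (-2.34) or array weights (-2.25), nor without each transgenic array. Calls moved far more than changes. With the replicate block, which leaves 1 residual degree of freedom, 0 genes were called lower and 0 higher (1917 had an unadjusted p under 0.05 in limma), and 0 members and 0 further pathway genes in either direction. As replicate 3 exists only among the transgenic arrays, this fit also takes that array out of the comparison, and leaving it out alone gave 7 genes lower and 3 higher. The same-numbered samples share only a number. With array weights the counts lower and higher were 0 and 1 over all genes, 0 and 0 for the members and for the pathway genes (1010 genes had an unadjusted p under 0.05). Over all genes, cyclic loess gave 569 lower and 395 higher, quantile normalization gave 607 and 525, and there were 144 and 58 with every row tested, and 625 and 418 among genes with 5 different values. The share of higher genes thus depends on the scaling. Members lower numbered 2 after cyclic loess, quantile normalization or with 5 different values only (Nfatc1 was added), members higher 2 after quantile normalization (Ppp3cb was added) and 0 with every row tested. Further pathway genes lower numbered 10 after quantile normalization and 2 with every row tested, and those higher 5 after median centring or cyclic loess, 6 after quantile normalization, 7 with 5 different values only and 0 with every row tested. The cause of these moves was not tested, except that the row and value settings change the number of genes tested.

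With 1 array left out in turn, genes lower ran from 2 to 1571 and higher from 2 to 1319, members lower from 0 to 2 and higher from 0 to 1, and pathway genes lower from 0 to 15 and higher from 0 to 4. The highest counts came without a wild type array, where the lone one is assumed to vary like the transgenic arrays. Among genes with 5 different values, a setting added after the data were seen, these ranges were 322 to 692 lower and 191 to 404 higher over all genes (366 higher without wild type replicate 1), 1 to 1 and 1 to 1 for the members, and 5 to 14 and 4 to 5 for the pathway genes. Rcan2 changed sign after cyclic loess (-0.0019), quantile normalization (-0.0058) and without transgenic replicate 1 (-0.0041, against a highest value of 0.020 without replicate 3), always near 0, and Csnk1a1 with the mean of its rows (0.041). Over the 36 genes named beside Ppp3cc, Rcan2 and Csnk1a1 included, 534 of 719 single-gene values kept sign and call, 166 kept the sign and lost the call, and 15 gained it.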
